A study of Mus musculus with 13 samples.

Results

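The stretch of mouse chromosome 8 that holds the genes Irx3 and Irx5 was examined for binding of 4 transcription factors in neural progenitors made from embryonic stem (ES) cells. Its members were the peaks, the places called as bound, whose centre lay in chr8:94000000-95050000 of the mouse build mm9, a window of 1.05 Mb. They numbered 48 of the 23280 peaks in the 4 deposited lists, with 8 of 5551 for Nkx2.2, 11 of 4094 for Nkx6.1, 19 of 11747 for Olig2 and 10 of 1888 for Gli3. The window was set by position and not by any measured value.

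Irx3 and Irx5 encode transcription factors of the Iroquois homeodomain family, which lie in clusters of related genes and act in patterning of the neural tube, heart, limb and other organs. In the developing spinal cord Irx3 is known from progenitors above the motor neuron domain, and Irx3 and Olig2 are known to repress each other at the border between those progenitors. Olig2, a bHLH factor, marks motor neuron progenitors. The homeodomain factor Nkx2.2 marks the progenitors below them, and Nkx6.1 covers a wider ventral territory. Gli3 is a zinc finger factor that acts mostly as a repressor where Sonic hedgehog signalling is off. In the RefSeq gene order, the protein-coding gene before Irx3 is Fto, which encodes an RNA demethylase, none lies between Irx3 and Irx5, and the next after Irx5 is Irx6, another Iroquois gene. That order comes from another build, so the place of each peak relative to these genes, and the base sequence under it, was not analysed here. Binding was measured, not expression of Irx3 or Irx5.

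The assay was ChIP-seq, in which chromatin bound by a factor is precipitated and its DNA sequenced, with 13 libraries, 7 of them ChIP libraries and 6 inputs, which are chromatin sequenced without precipitation. All cultures spent 2 days in suspension and 3 days in 500 nM retinoic acid. Nkx2.2, Nkx6.1 and Olig2, called the ventral factors here, were profiled in 2 ChIP libraries each from progenitors that also received 160 to 800 nM Smoothened agonist, which switches on Sonic hedgehog signalling. The strains mixed in their background were C57BL6/J, Swiss Webster and 129 Sv. The first Nkx6.1 and Olig2 libraries came from the line YFP3.1, and the others from its derivative Rosa26-Gli1FLAG, which carries a FLAG-tagged Gli1. Gli3 was profiled in 1 ChIP library, with anti-FLAG, from progenitors, labelled dorsal, that received no agonist. These came from V6.5 cells (C57BL/6 X 129/sv) with a 3xFLAG-Avi tag at the Gli3 initiation codon. Factor, culture and line therefore cannot be told apart in any comparison with Gli3.

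Each factor had 1 peak list, with peaks of 300 bp and no score, so the counts below have no replicate error and no test between conditions was possible. Intervals cover counting error only and treat peaks as independent, which neighbouring peaks are not. The ventral factors also had a table of coverage around each peak in 3 blocks of columns that name no library, and library depth is unknown. Block 3 of the Nkx6.1 and Olig2 tables was the same at all 17 places where both lists had a peak with the same centre (equal within 1e-06 units), whereas blocks 1 and 2 were equal at 0 of them. The labels tie 1 sample to both tables, an input. The blocks keep their numbers here and are not taken as named libraries or as replicates.

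Each of the 4 lists was denser in the window than elsewhere. The window held 7.62 Nkx2.2, 10.5 Nkx6.1 and 18.1 Olig2 peaks per Mb. On all chromosomes other than 8 the figures were 2.15, 1.59 and 4.57. The folds over those chromosomes were 3.54 for Nkx2.2 (95% exact Poisson interval 1.53 to 6.97), 6.58 for Nkx6.1 (3.29 to 11.8) and 3.96 for Olig2 (2.38 to 6.19). For Gli3 the window held 9.52 peaks per Mb, 14.3-fold over the other chromosomes (6.85 to 26.3). The rest of chromosome 8 was itself rich in Gli3 peaks, at 2.03 per Mb or 3.05 times the other chromosomes, while the Nkx2.2, Nkx6.1 and Olig2 figures were 1.15, 1.07 and 1.09 times. Over the rest of chromosome 8, the Gli3 fold was 4.68 and those of Nkx2.2, Nkx6.1 and Olig2 came to 3.08, 6.15 and 3.64. The part of the chromosome's raised Gli3 count in the window's count was not tested.

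Cut into tiles as long as the window, the chromosomes gave 2460 tiles. At least 8 Nkx2.2 peaks lay in 4.11% of tiles, at least 11 Nkx6.1 peaks in 0.488%, at least 19 Olig2 peaks in 1.14% and at least 10 Gli3 peaks in 0.244%. The median tile held 2 Nkx2.2, 1 Nkx6.1, 4 Olig2 and 0 Gli3 peaks. Of the 6 tiles with 10 or more Gli3 peaks, 4 lay on chromosome 8, the window among them. The window was the 1 tile that reached all 4 counts, which are its own counts and so favour it. The plot of peaks per tile shows the window far down the tail for Nkx6.1, Olig2 and Gli3, and less far for Nkx2.2, where 101 tiles held as many. With every tile border moved to the middle of a tile, a setting chosen after seeing the data, the number of tiles reaching the Nkx6.1 count went from 12 to 5.

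**Figure D1:**
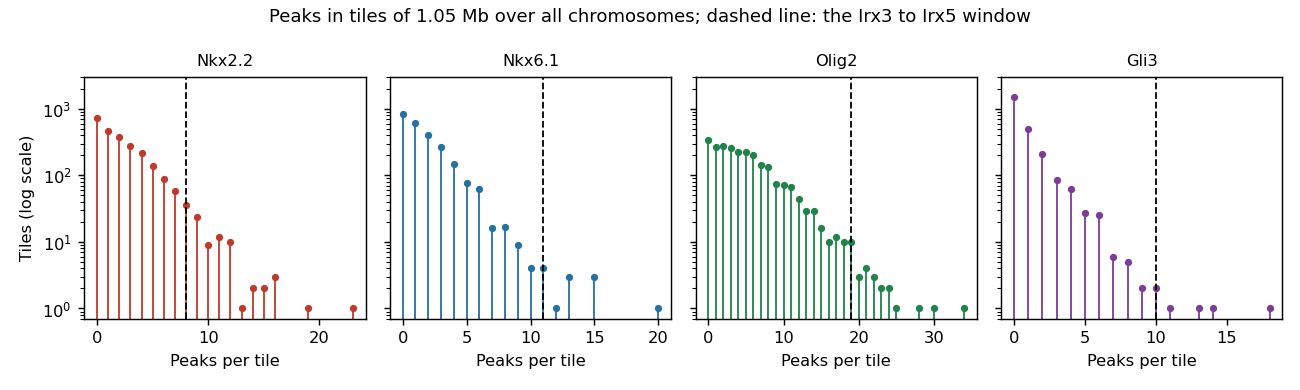
Number of tiles (vertical, log scale) by number of peaks per tile (horizontal), 1 panel per list, over 2460 tiles of 1.05 Mb. The dashed line marks the Irx3 to Irx5 window, with 8 Nkx2.2, 11 Nkx6.1, 19 Olig2 and 10 Gli3 peaks.

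The peaks were not spread evenly through the window. Joined where neighbouring centres were under 10 kb apart, the 48 peaks formed 19 groups, 10 of them a single peak. The widest gap, 217612 bp, separated a left part with 41 peaks from a right part with 7. All 25 peaks that overlapped a peak of another factor lay in the left part, a split chosen after the values were seen. The right part held 4 Gli3 peaks and 1 peak of each ventral factor, none of them overlapping. The fullest group, with 8 peaks of all 4 lists in 6961 bp between the outermost centres, was chr8:94653756-94661016. Extending the window by 100 kb on each side added 1 Nkx2.2, 1 Nkx6.1, 1 Olig2 and 0 Gli3 peaks.

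**Figure D2:**
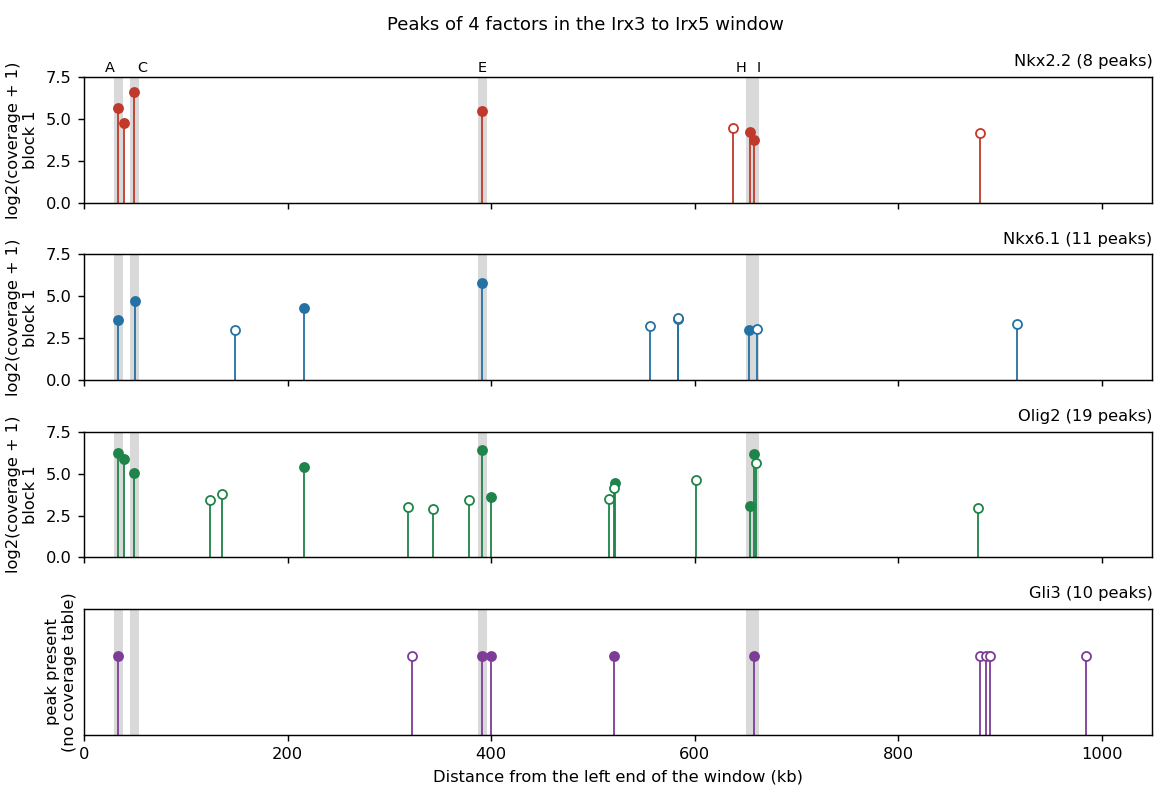
Position of each of the 48 peaks along the window (horizontal, kb from its left end) in 4 panels, 1 per list; height is log2(coverage + 1) in block 1 for the ventral factors, and Gli3 has no coverage values. Filled circles overlap a peak of another factor, open circles do not, and grey bands mark the 5 regions of 3 or 4 factors (A, C, E, H and I); the 7 peaks right of the widest gap are all open.

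Peaks that shared at least 1 bp were joined into regions, which numbered 31 in the window. Of these, 22 held 1 factor, 4 held 2, 3 held 3 and 2 held all 4. Regions of 2 or more factors thus made up 9 of 31 (29.0%), against 16.2% of all 19087 regions of the 4 lists. Regions of 4 factors made up 2 of 31 (6.45%), against 0.367% of all regions. The 4 lists held 70 such regions in all, 7 of them on chromosome 8. The 9 regions of 2 or more factors are called A to I from left to right. The factors were precipitated separately, so a shared region does not show binding in the same cell.

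By list, larger shares of the window's Nkx2.2 and Olig2 peaks than of the whole lists met another factor. Of the 8 Nkx2.2 peaks, 6 overlapped a peak of another factor (75.0%, exact 95% interval 34.9 to 96.8), against 35.3% of the whole list. Of the 19 Olig2 peaks, 9 did (47.4%, 24.4 to 71.1), against 21.7%. The Nkx6.1 share was near its background, with 5 of 11 (45.5%, 16.7 to 76.6) against 47.1%. For Gli3 it was 5 of 10 (50.0%, 18.7 to 81.3) against 36.3%, a background that lay inside the interval. The Nkx2.2 background also lay inside its interval by this definition, at 35.3% against a lower bound of 34.9%.

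Olig2 overlapped 6 of the 8 Nkx2.2 peaks (background 24.3%), 5 of the 11 Nkx6.1 peaks (38.6%) and 5 of the 10 Gli3 peaks (20.1%). The Nkx6.1 share, 45.5%, was near its background. Counting only peaks that met another factor, Olig2 was at 6 of 6 Nkx2.2 (68.7% of such peaks in the list), 5 of 5 Nkx6.1 (81.9%) and 5 of 5 Gli3 peaks (55.2%). Over the whole lists, too, Olig2, the longest list, was the most frequent partner of Nkx2.2 and of Nkx6.1. Over the whole Gli3 list the most frequent partner was Nkx2.2, at 22.5% against 20.1% for Olig2. Nkx2.2 met Nkx6.1 at 4 of 8 peaks (16.1%) and Gli3 at 3 of 8 (7.91%). Of the 11 Nkx6.1 peaks, 4 met Nkx2.2 (21.5%) and 2 met Gli3 (3.47%). Of the 19 Olig2 peaks, 6 met Nkx2.2 (11.2%), 5 met Nkx6.1 (13.5%) and 5 met Gli3 (3.26%). Of the 10 Gli3 peaks, 3 met Nkx2.2 (22.5%) and 2 met Nkx6.1 (7.36%). On the rest of chromosome 8 the share at Gli3 was 17.8% in the Nkx2.2 list, 6.02% in that of Nkx6.1 and 6.51% in that of Olig2, higher than over the whole lists in each case. The Olig2 share at Gli3 in the window, 26.3%, had an interval of 9.15 to 51.2, above the value for the rest of the chromosome. The intervals of the Nkx2.2 share at Gli3 (8.52 to 75.5) and of the Nkx6.1 share at Gli3 (2.28 to 51.8) held that value.

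**Figure D3:**
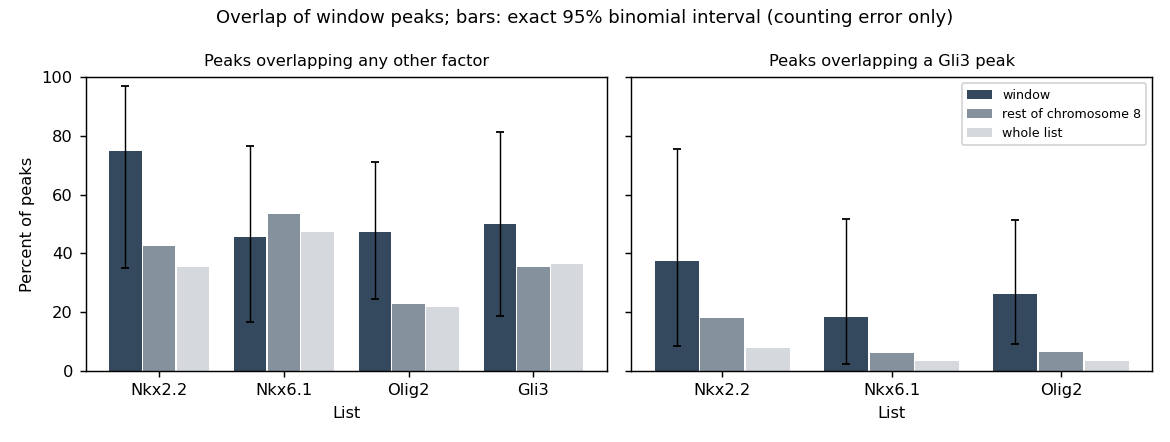
Percent of peaks (vertical) that overlapped a peak of any other factor (left) or a Gli3 peak (right), by list, in the window, on the rest of chromosome 8 and over the whole list; error bars are exact 95% binomial intervals of the window values. For Nkx6.1 the window value (45.5%) sits beside the whole list (47.1%), and for Olig2 it is higher (47.4% and 21.7%).

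The first region of all 4 factors, A, was chr8:94032973-94033352, with the 4 centres within 80 bp. Coverage, the mean within 250 bp of a peak's centre in the units of its own table, was high for Olig2 and Nkx2.2 there and less so for Nkx6.1. The Olig2 peak had 72.9, 74.5 and 1.2 units in blocks 1, 2 and 3, where the median Olig2 peak had 11.3, 8.44 and 0.710. The Nkx2.2 peak had 49.4, 14.7 and 1.13 units, against list medians of 18.4, 4.43 and 1.2. The Nkx6.1 peak had 11.0, 15.8 and 1.16 units, against 10.4, 5.19 and 0.672, so it was near the median in block 1 and at the 92.0 percentile of its list in block 2. Scales of different tables cannot be compared. Within the 70 regions of 4 factors, the Olig2 peak of A ranked 10 from the highest in block 1 and 11 in block 2. Its Nkx6.1 peak ranked 55 and 30.

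The other region of 4 factors, E, was chr8:94390805-94391300, with centres within 196 bp. All 3 ventral peaks there lay above the 90th percentile of their lists in blocks 1 and 2. Olig2 had 83.3 and 81.3 units, the highest of the 19 Olig2 peaks in both blocks. Nkx6.1 had 54.1 and 21.5 units, the highest of the 11 in block 1, and ranked 5 among the 70 regions in that block. Nkx2.2 had 43.0 and 15.6 units. Block 3 had 1.27 units at the Olig2 peak, 0.822 at the Nkx6.1 peak and 0.827 at the Nkx2.2 peak. These stood at the 86.3, 64.5 and 29.9 percentiles of their lists in that block. The Olig2 centre stood to one side, 196 bp from the Nkx6.1 centre and 153 bp from the Gli3 centre, while the Gli3 centre was 21 bp from Nkx2.2 and 43 bp from Nkx6.1.

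Region C, chr8:94049248-94049592, held the 3 ventral factors within 45 bp, and the nearest Gli3 peak was 16227 bp from its Nkx2.2 centre. It had the highest Nkx2.2 coverage of the window, with 95 units in the first block, 34.1 in the next and 1.49 in the last. Its Nkx6.1 peak had 25.6, 31.5 and 1.89 units, the highest of the 11 in block 2. Its Olig2 peak had 32.5, 48.9 and 1.85 units. Here, too, every ventral peak was above the 90th percentile in block 2, and in block 1 the Olig2 peak was just below it, at the 88.7 percentile.

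Region H, chr8:94653756-94654231, also held the 3 ventral factors, with coverage that was low in block 1 and less so in block 2. Olig2 had 7.45 units in block 1 and 7.53 in block 2, below the medians of its list. Nkx6.1 had 6.91 and 9.46 units and Nkx2.2 had 17.8 and 7.08, each below its list's median in block 1 and above it in block 2. Among the 481 regions of the 3 ventral factors without Gli3, the block 1 ranks in H were Nkx2.2 391, Nkx6.1 466 and Olig2 449, while in C they were 28, 117 and 151. In block 2 the ranks in H were 292, 251 and 421, so Nkx6.1 stood near the middle of its class there and Olig2 stayed low.

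Region I, chr8:94658016-94658494, lay next to H and held Nkx2.2, Olig2 and Gli3. Olig2 had 71.3 units in block 1 and 74.6 in block 2, rank 3 in both blocks among the 74 regions of this class. Nkx2.2 had 12.7 and 5.06 units, the lowest Nkx2.2 value of the window in block 1, with rank 65 there and 46 in block 2. The nearest Nkx6.1 centre was 2522 bp from the Olig2 centre. In the same group, an Olig2 peak at chr8:94660376-94660675 overlapped no other factor although it had 48.7 and 32.1 units, the highest of the 10 Olig2 peaks alone in the window. An Nkx6.1 peak lay 341 bp from it, at chr8:94660717-94661016, with 7.20 and 3.99 units. Nkx6.1 coverage at the Olig2 centre was lower, at 4.75 and 3.77 units.

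**Figure D4:**
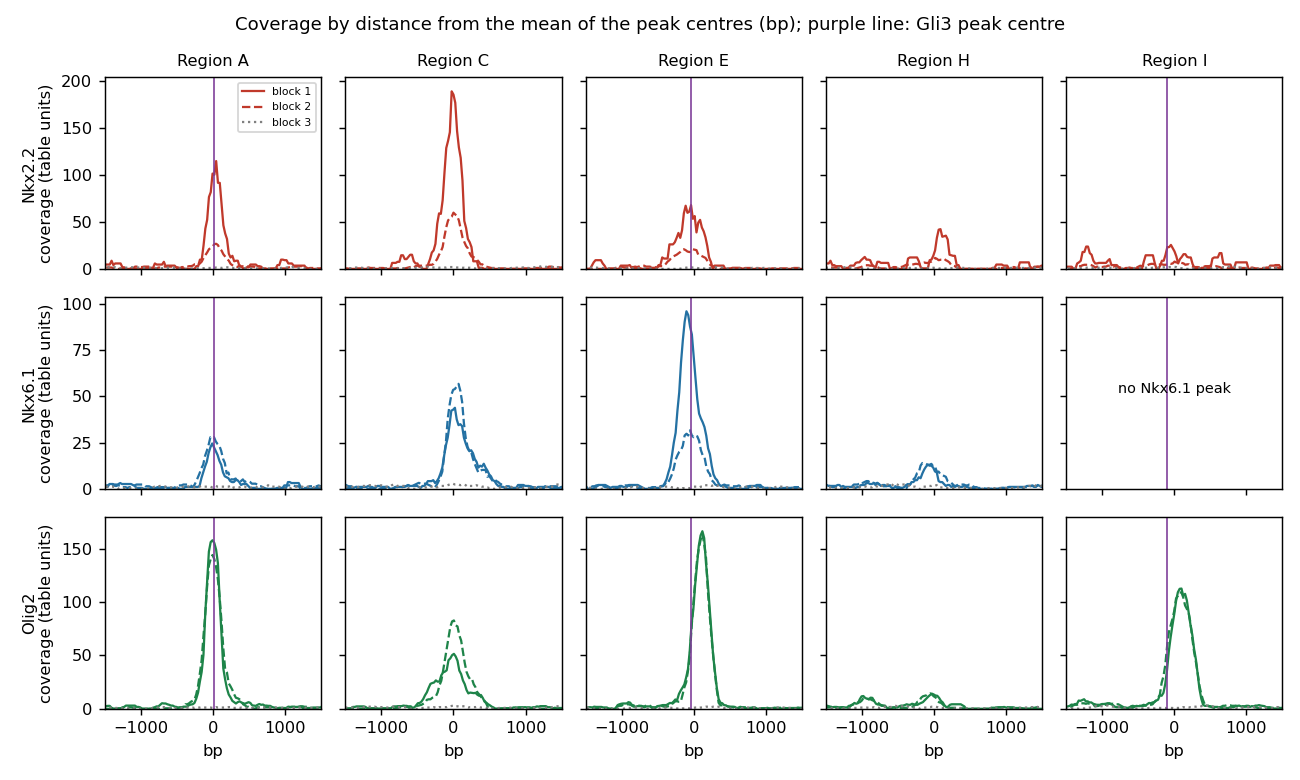
Coverage (vertical, units of each factor's own table) by distance from the mean of the peak centres (horizontal, bp) at the 5 regions of 3 or 4 factors, 1 row per ventral factor; solid, dashed and dotted lines are blocks 1, 2 and 3, and the purple line is the Gli3 peak centre where there is one. Blocks 1 and 2 rise together near the centres and block 3 stays below them there; Olig2 is high at I and low at H in both blocks.

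The 4 regions of 2 factors all held Olig2, the longest list. Most such regions over all chromosomes did so too. Of 2415, 964 paired Olig2 with Nkx6.1, 668 with Nkx2.2 and 191 with Gli3. B, at chr8:94038761-94039068, paired Olig2 with Nkx2.2, with centres 8 bp apart. Olig2 had 57.1 units in block 1 and 53.9 in block 2 there, and Nkx2.2 had 26.6 and 5.04. D, at chr8:94216005-94216307, paired it with Nkx6.1, with centres 3 bp apart, and both were high in block 2 (54.4 units for Olig2 and 17.7 for Nkx6.1, with 40.5 and 19.0 in block 1). The nearest Nkx2.2 peak to D was 166757 bp from its Olig2 centre. F and G paired Olig2 with Gli3.

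F, at chr8:94399902-94400444, had centres 243 bp apart and 11.2 and 17.1 units of Olig2 in blocks 1 and 2. G, at chr8:94521083-94521417, had centres 35 bp apart and 21 and 33.6 units. A second Olig2 peak, at chr8:94520555-94520854, stood 528 bp from the Gli3 centre of G with 16.4 and 15.5 units. The highest coverage in its row of the table was 525 bp to its right in block 1 and 550 bp in block 2, towards G.

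The Gli3 peaks fell into 5 that overlapped Olig2 (A, E, F, G and I) and 5 that overlapped no ventral factor. Gli3 had no coverage table, so their strength is not known. Of the 5 alone, 1 lay in the left part, at chr8:94321661-94321960, 3905 bp from an Olig2 centre. The other 4 were chr8:94880464-94880763, chr8:94885798-94886097, chr8:94890491-94890790 and chr8:94984305-94984604. The first of these was 535 bp from the centre of the 1 Nkx2.2 peak of the right part, chr8:94879929-94880228, which had 16.8, 3.92 and 2.42 units in the 3 blocks. Nkx2.2 coverage at that Gli3 centre was 6.62, 1.80 and 1.88 units. These would stand at the 0.414, 9.26 and 74.5 percentiles of the Nkx2.2 list in blocks 1, 2 and 3. The Nkx2.2 peak itself stood at the 42.1, 42.0 and 87.1 percentiles. The next 2 Gli3 peaks were 5869 and 10562 bp from the same Nkx2.2 centre. The last was 67775 bp from the nearest ventral centre, of Nkx6.1.

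The order of the lists, which the sources used here do not explain, followed block 1 coverage in the ventral lists, with rank correlations of line number and coverage of -0.83 (Nkx2.2), -0.89 (Nkx6.1) and -0.93 (Olig2) over all peaks of each list. In the Gli3 list the 10 members stood at lines 394 (A) to 1814 of 1888. The peak of A came first and that of E, at line 813, next, before I at 921. Without Gli3 coverage, whether line order follows strength in this list is not known. The 3 neighbouring peaks of the right part stood at lines 1056, 1092 and 1230, and F and G at 1607 and 1620.

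Ventral peaks of the window spanned most of the range of their lists. Among the 19 Olig2 peaks, block 1 coverage went from 6.56 to 83.3 units with a median of 16.4, and block 2 coverage from 1.40 to 81.3 with a median of 15.5. The lowest in block 1 was chr8:94342744-94343043, with 6.56, 6.88 and 1.23 units in the 3 blocks. The 8 Nkx2.2 peaks went from 12.7 to 95 in block 1 (median 23.9) and from 2.69 to 34.1 in block 2 (median 6.07). The 11 Nkx6.1 peaks went from 6.91 to 54.1 in block 1 (median 11.0) and from 3.99 to 31.5 in block 2 (median 9.46). Window medians exceeded list medians by 0.50 in block 1 and 0.81 in block 2 for Olig2, on the log2(coverage + 1) scale. They did so by 0.35 and 0.36 for Nkx2.2, and by 0.07 and 0.76 for Nkx6.1. In block 3 the difference was 0.29 for Olig2, 0.25 for Nkx6.1 and -0.07 for Nkx2.2. Those of Olig2 and Nkx6.1 are not independent, since block 3 of their tables was the same at shared centres. Of the Nkx6.1 peaks, chr8:94583071-94583370 and chr8:94583240-94583539 overlapped each other, so their 11.6 and 12.0 units in block 1 are largely the same coverage. Without the highest Nkx6.1 peak, that of E, the block 1 difference of Nkx6.1 was -0.050. Because medians are compared, leaving out any other Nkx6.1 peak above the window median would give the same value. Without the highest Nkx2.2 peak, that of C, the Nkx2.2 differences were 0.18 in block 1 and 0.16 in block 2.

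The upper end was well filled. Above the 90th percentile of their list, which 10% of a list exceeds by construction, lay 6 of 19 Olig2 peaks in block 1 and 8 in block 2. For Nkx2.2 it was 3 of 8 in each block and for Nkx6.1 2 of 11 and 4 of 11. In both blocks at once it was 6 of 19 Olig2 peaks (6.8% of the whole list), 3 of 8 Nkx2.2 peaks (6.05%) and 2 of 11 Nkx6.1 peaks (5.69%). These were the Olig2 peaks of A, B, D, E and I and the one alone beside I, the Nkx2.2 peaks of A, C and E, and the Nkx6.1 peaks of C and E. This threshold was chosen after the values were seen.

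Within the window, peaks at another factor tended to have more coverage than peaks alone, though the ranges overlapped in each list in block 1. The same split over the whole lists is not given here, so whether it is particular to the window was not tested. The 9 shared Olig2 peaks had a median of 40.5 units in block 1 (7.45 to 83.3), and the 10 alone had 10.1 (6.56 to 48.7). In block 2 the medians were 53.9 (7.53 to 81.3) and 8.51 (1.40 to 32.1). For Nkx6.1 the 5 shared peaks had 19.0 units in block 1 (6.91 to 54.1) and the 6 alone 8.84 (6.98 to 12.0). In block 2 they had 17.7 (9.46 to 31.5) and 5.91 (3.99 to 9.64), again with overlap. The 6 shared Nkx2.2 peaks had 34.8 units in block 1 (12.7 to 95), and the 2 alone had 21.1 and 16.8. In block 2 the groups did not overlap, with 5.04 to 34.1 shared and 2.69 and 3.92 alone.

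**Figure D5:**
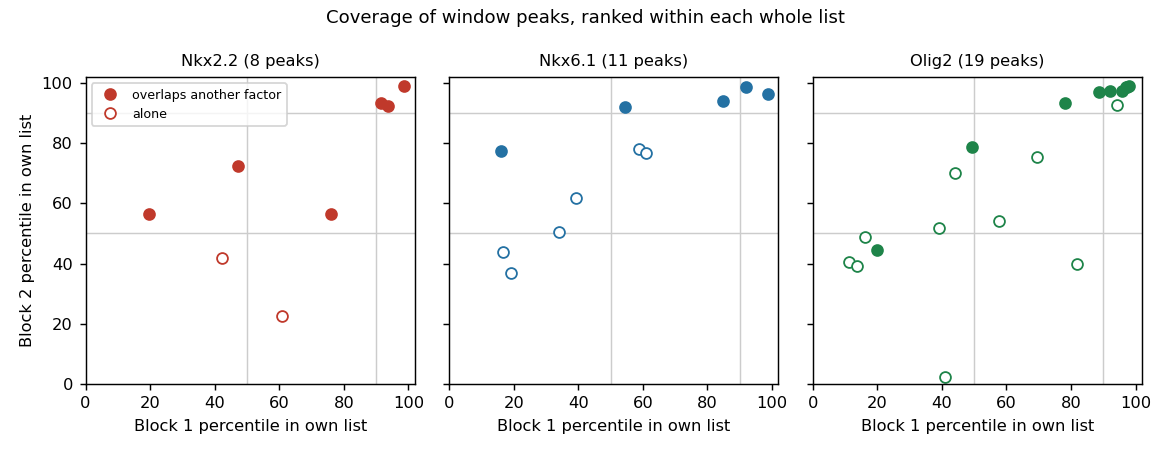
Percentile of each window peak within its whole list in block 1 (horizontal) and block 2 (vertical), 1 panel per ventral factor; filled circles overlap another factor and open circles do not, and grey lines mark the 50th and 90th percentiles. The upper right corner, above 90 in both blocks, holds 3 Nkx2.2, 2 Nkx6.1 and 6 Olig2 peaks.

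Blocks 1 and 2 placed most profile summits alike, while a number of members changed rank between them. The highest point of the profile lay within 50 bp in the 2 blocks at 30 of the 38 ventral peaks, and in block 1 it lay within 50 bp of the peak centre at 34. The matching shares of the whole lists are not given here, so these counts describe the members only. The percentile in the list was over 20 points higher in block 2 than in block 1 at 12 of the 38 and over 20 points lower at 3, a threshold chosen after the values were seen. Higher in block 2 were 2 of 8 Nkx2.2 (18% of the list), 4 of 11 Nkx6.1 (18.8%) and 6 of 19 Olig2 peaks (15.6%). Lower were 1 of 8 (17.7%), 0 of 11 (18.8%) and 2 of 19 (16%).

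The widest shift was that of the Nkx6.1 peak of H, from the 16.1 to the 77.6 percentile. The Nkx6.1 peak of A went from 54.3 to 92.0 and the Nkx2.2 peak of I from 19.7 to 56.6. Some of those higher in block 2 overlapped no other factor. Among them were the Olig2 peak at chr8:94317756-94318055 (16.3 to 48.9) and the Nkx6.1 peak at chr8:94147972-94148271 (16.7 to 43.9). The 3 that were lower in block 2 also overlapped no other factor. Most peaks of their lists did not either, since 21.7% of Olig2 and 35.3% of Nkx2.2 peaks overlapped one. The Olig2 peak at chr8:94377763-94378062 had 9.91 units in block 1 and 1.40 in block 2, at the 40.9 and 2.2 percentiles. The Olig2 peak at chr8:94601590-94601889 had 23.6 and 6.77 units, at the 81.7 and 39.9 percentiles. The Nkx2.2 peak at chr8:94637791-94638090 had 21.1 and 2.69 units, at the 60.8 and 22.6 percentiles.

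Block 2 coverage exceeded that of block 1 in a larger share of Olig2 peaks in the window than in the list, at 10 of 19 peaks where 22.7% of the list did so. For Nkx6.1 it did at 3 of 11 (A, C and H), against 8.48%, and for Nkx2.2 at 0 of 8, against 0.558%. The 10 Olig2 peaks included those of A, C, D, F, G, H and I.

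In blocks 1 and 2, nearly all ventral members rose over their flank, the mean of the outermost 250 bp on each side. So did nearly all peaks of the whole lists. Coverage was over 2 times the flank at 8 of 8 Nkx2.2 (99.2% of the list), 11 of 11 Nkx6.1 (99.6%) and 19 of 19 Olig2 peaks (98.8%) in block 1. In block 2 it was 7 of 8 (94.9%), 11 of 11 (96.4%) and 19 of 19 (97.4%), the exception being the Nkx2.2 peak of the right part. In block 3 it was 4 of 8 (56.4%), 5 of 11 (38.4%) and 10 of 19 (40.4%), near the shares of the lists. Block 3 coverage was higher than the list median at 17 of 19 Olig2 and 10 of 11 Nkx6.1 peaks of the window, and at 2 of 8 Nkx2.2 peaks. The Olig2 and Nkx6.1 counts are not independent. Block 3 was the same in both tables at shared centres, and 5 of the Nkx6.1 peaks overlapped Olig2 peaks. Among the Olig2 peaks the highest block 3 value, 2.45 units, belonged to chr8:94317756-94318055, whose block 1 and 2 values were 7.10 and 8.22.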

How the data were processed

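The members and lists were chosen with earlier results of these data known. The build was mm9, and HOMER and Bowtie2 2.2.4 were among the tools, per the submitters' processing notes, which do not tie them to steps. Peaks came from the authors as 3-column lists without scores, deposited with tables of coverage (signal) in 25 bp steps up to 2000 bp from each peak centre, in 3 blocks that name no library, per the file headers. Scaling, filters and pooling of replicates are not given in the sources used here. Start and end positions are as the authors deposited them, given 1-based; other columns of samples left out numbered 0.

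Row and line numbers paired each profile with its peak. As a check, profiles of neighbouring peaks (within 1000 bp) were aligned by position, with median correlations of 0.970 to 0.998 over tables and blocks. Coverage is the mean within 250 bp of the centre, and logs are log2(coverage + 1). Peaks overlapped at 1 bp or more. Chromosome lengths for densities and tiles are the span from the first to the last peak of the 4 lists. Regions given in full were those of 2 or more factors, the Gli3 peaks, and the highest and lowest ventral peaks in block 1; others were chosen after their values were seen. Functions were tested on simulated data with Python 3.11.15 and pandas 2.3.3. Samples were grouped by title. Alternatives are given with the limits. Genes were not placed on mm9.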

Additional observations from a re-analysis of the deposited data

How the results depend on the processing

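Without replicates of the lists there is no leave-one-out value, and Gli3 strength is unknown. No paired analysis was possible because the columns carry no replicate numbers and the results come from no test. A score-based threshold could not be made stricter. Of 87 values under another setting, 75 stayed within the tolerance (1.5 times a count or a coverage ratio, or the counting interval of a fold). With peaks at or above their list's block 1 median, the window kept 5 Nkx2.2, 6 Nkx6.1 and 11 Olig2 peaks. The Gli3 fold over the rest of chromosome 8 was 4.68. With centres within 100 bp, 3 Gli3 peaks met another factor. In block 3, raised Nkx2.2 peaks numbered 2 with the right flank and 0 at 4 times the flank, where Nkx6.1 had 1 and Olig2 had 4. The Nkx6.1 median difference in block 1 was -0.22 within 100 bp of the centre and -0.050 without the highest peak, and that of Nkx2.2 in block 3 was 0.024 within 100 bp, each with the sign changed; the cause was not tested. Tiles reaching the Nkx6.1 count were 5 when moved.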
